A study of Mus musculus with 2 samples.

Results

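The 9 genes of the major histocompatibility complex (MHC) class II pathway described here are H2-Aa, H2-Ab1, H2-Eb1, Cd74, Ciita, H2-DMa, H2-DMb1, H2-DMb2 and H2-Oa. They were chosen by symbol, and each matched 1 of the 32285 gene rows of the files. Their transcripts were counted in single cells of whole mouse uterus. The study made 2 libraries with 10x Genomics 3' chemistry, each from the pooled uteri of 3 female C57BL/6J mice aged 6 months. The library labelled control came from mice titled Prickle1 f/f, in which the planar cell polarity gene Prickle1 is flanked by sites for a recombinase. The library labelled cKO (conditional knockout) came from mice titled Prickle1 f/f MiC, so the f/f allele was shared by both groups. The labels do not explain MiC or name the recombinase driver, and the genotype is given as wild-type on both. The series title places the loss of PRICKLE1 in the myometrium, the muscle layer of the uterus.

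MHC class II molecules are pairs of an alpha and a beta chain that display peptides from the endosome to CD4+ T cells. H2-Aa and H2-Ab1 encode the alpha and beta chains of I-A, and H2-Eb1 encodes the beta chain of I-E. Cd74 is the invariant chain, which fills the peptide groove and guides new molecules to the endosome. H2-DMa pairs with H2-DMb1 or H2-DMb2 to form H2-DM, the chaperone that exchanges the remnant of Cd74 for peptide, and H2-Oa is the alpha chain of H2-O, which restrains H2-DM. Ciita is the coactivator that switches the family on, in dendritic cells and B cells constitutively and in macrophages and many other cells after interferon gamma. In the uterus, dendritic cells and macrophages of the wall and lining are the best known carriers of class II, and endometrial epithelium can also carry it.

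In the GRCm38 assembly, 7 members lie in the class II region of chromosome 17, from H2-Oa (chr17:34092340-34095234) to H2-Eb1 (chr17:34305867-34316674), with H2-DMa at chr17:34119541-34139101, H2-DMb2 at chr17:34143307-34151555, H2-DMb1 at chr17:34153072-34160230, H2-Ab1 at chr17:34257689-34269419 and H2-Aa, on the minus strand, at chr17:34282744-34287823. Ciita lies on chromosome 16 (chr16:10480059-10528418). Promoter windows (RefSeq, GRCm38.p6) were at hand for 6 of the 9 members. Class II promoters are known for a shared module in which an X box, bound by the RFX complex, and a Y box, the CCAAT site bound by NF-Y, stand at a fixed spacing. Its outline could be read in the members. Those of H2-DMb1 and H2-Oa overlap annotated exon bases and are not shown. The 3 upstream stretches below overlap none, with an AAC on the X box side and the GATTGG of the Y box in capitals, 5′ to 3′ on the strand of the gene.
H2-Aa, chr17:34287863-34287908, minus strand: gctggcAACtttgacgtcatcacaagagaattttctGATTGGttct
H2-Eb1, chr17:34305772-34305816, plus strand: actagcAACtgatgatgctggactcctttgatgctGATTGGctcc
H2-DMb2, chr17:34145122-34145167, plus strand: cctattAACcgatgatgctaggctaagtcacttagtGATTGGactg
The pattern of AAC and GATTGG separated by 26 to 28 bases was written down after these letters were read, so it describes the members and tests nothing. It was present in the 250 bases upstream of the start of 5 members (H2-Aa, H2-Eb1, H2-DMb1, H2-DMb2 and H2-Oa), with 26 bases between the motifs in H2-Eb1 and 27 in the other four. Searched on both strands, it was present in 200 of 32851 promoters of the same length in the table (0.609%), and GATTGG alone was in 14.6% of them. Neither of the 2 annotated starts of H2-DMa had the pair. The first of these starts lies 198 bases from that of Brd2, a chromatin reader transcribed in the opposite direction, and the annotated bodies of the 2 genes overlap.

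The library labelled control held 45035801 UMIs (unique molecular identifiers, 1 per captured transcript), and that labelled cKO held 34261441. After filtering they gave 3490 and 3586 cells with medians of 4953 and 4903 UMIs, and 6 cell barcodes occurred in both. Prickle1 did not follow the labels. Over all cells, 96 of its UMIs fell in the library labelled control and 265 in that labelled cKO, and 14 and 51 UMIs in smooth muscle-like cells, where the cKO to control ratio of CPM was 1.64 (95% counting interval 0.894 to 3.21); the counted tags need not lie in the deleted part, so this does not check the deletion. Clusters were named from marker genes with class II genes left out of the clustering, and gave among others 1312 and 109 epithelium-like, 853 and 1344 fibroblast-like, 313 and 681 smooth muscle-like, 161 and 209 dendritic cell-like, and 310 and 226 macrophage or monocyte-like cells (library labelled control first, as throughout). Cluster 16 (24 and 28 cells) had B cell markers, but plasma cell genes outnumbered them among its leading genes, and with at least 2000 UMIs per cell the same rule named such a cluster plasma cell (20 and 26 cells), so it is given by its number. Each group is 1 library, so no difference between them has a replicate check and no test was made. All intervals are exact 95% counting intervals and cover counting error alone.

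Class II transcripts were held by a small minority of cells. Dendritic cell-like cells were 4.61% and 5.83% of cells and held 46.5% and 58.9% of all class II UMIs, and macrophage or monocyte-like cells were 8.88% and 6.30% of cells and held 42.7% and 30.3%. Over all cells, the summed level of the 9 genes was 2058 and 2095 CPM (UMIs of a gene per 1000000 UMIs of the cells summed). The sum reached 20612 CPM (20399 to 20826) and 18908 CPM (18714 to 19104) in dendritic cell-like cells, and 12246 (12114 to 12379) and 11030 CPM (10872 to 11189) in macrophage or monocyte-like cells. Cluster 16 stood beside the macrophages in the library labelled control, at 12748 CPM with an overlapping interval (12150 to 13368), and below these cells in that labelled cKO, at 3914 CPM (3704 to 4134). Lymphatic endothelium-like cells followed with 784 and 1806 CPM. T or NK cell-like cells had 354 and 230 CPM, of which cluster 12, led by Ccr2, Trdc and Cd3 genes, had 148 and 61.8 CPM (97 and 296 cells) and cluster 23, led by Il5, Gata3 and Calca, had 487 and 483 CPM (114 and 162 cells). T and NK cells of mice are taken to lack class II, but Il5, Gata3 and Calca also mark group 2 innate lymphoid cells, which can carry it, so cluster 12 is the closer background. Droplets of 10 to 100 UMIs, taken as empty, had 448 and 643 CPM. From the share of other classes' markers in T or NK cell-like cells, free RNA would give 48.8 and 88.3 CPM there.

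**Figure D1:**
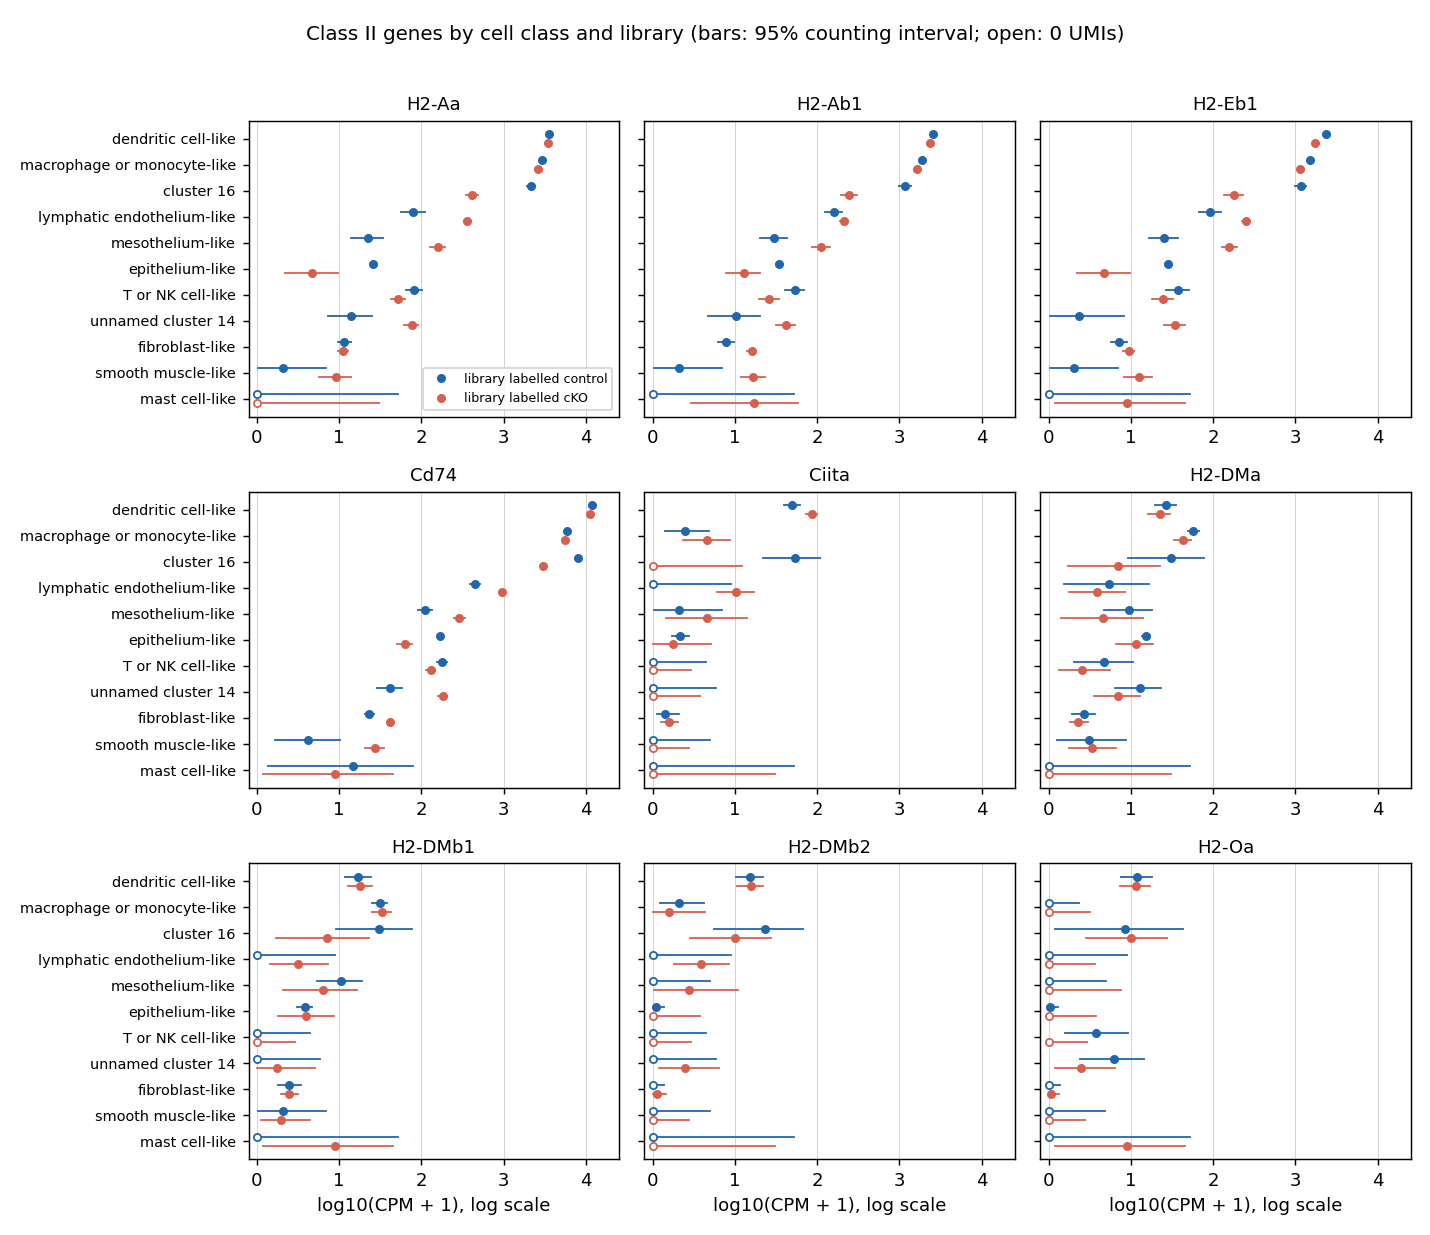
Level of each class II gene in 11 cell classes, as log10(CPM + 1), in the library labelled control (blue) and the library labelled cKO (red); points are summed UMIs of the class, bars the 95% counting interval, and open points mark 0 UMIs. H2-Aa, H2-Ab1, H2-Eb1 and Cd74 peak in dendritic cell-like cells with both libraries close together, while H2-DMb2 and H2-Oa reach 10 CPM in dendritic cell-like cells alone apart from H2-DMb2 in cluster 16 of the library labelled control.

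Transcripts of the invariant chain, the I-A chains and the I-E beta chain H2-Eb1 made up nearly all of the signal. Counts of H2-Eb1 do not show whether I-E protein was formed. In dendritic cell-like cells Cd74 had 20884 and 21517 UMIs (11991 and 11221 CPM) and was detected in 98.8% and 99.0% of cells. H2-Aa had 3582 and 3461 CPM, H2-Ab1 had 2571 and 2345 CPM, and H2-Eb1 had 2351 and 1732 CPM in the same cells. These cells were led by Ccr7, Ccl22 and Cd83, genes of migrating and mature dendritic cells. In macrophage or monocyte-like cells Cd74 stood at 5863 and 5584 CPM, H2-Aa at 2896 and 2603, H2-Ab1 at 1900 and 1619, and H2-Eb1 at 1498 and 1146 CPM. The balance within the sum differed between the cell types: Cd74 was 58.2% (57.7 to 58.7) and 59.3% (58.8 to 59.9) of class II UMIs in dendritic cell-like cells and 47.9% (47.3 to 48.4) and 50.6% (49.9 to 51.3) in macrophage or monocyte-like cells. The intervals of the cell types do not overlap in either library. In cluster 16 it was 63.6% (61.3 to 65.9) and 77.9% (75.5 to 80.1). Each UMI tags 1 transcript near its 3' end, so these CPM are not divided by gene length.

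Per cell, the dendritic class was more even than the macrophage class. Class II genes took a median of 1.92% and 1.75% of a dendritic cell-like cell's UMIs, with 10th percentiles of 0.790% and 0.618%. In macrophage or monocyte-like cells the medians were 0.907% and 0.717%, and 233 of 310 and 163 of 226 cells had at least 10 class II UMIs, against 155 of 161 and 203 of 209 dendritic cell-like cells. With every cell thinned to 1000 UMIs, 97.5% and 98.6% of dendritic cell-like cells, 88.4% and 82.3% of macrophage or monocyte-like cells, and 5.15% and 1.69% of cells of cluster 12 kept a class II UMI (98.8% and 99.0%, 92.6% and 91.6%, and 7.22% and 3.38% before thinning).

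**Figure D2:**
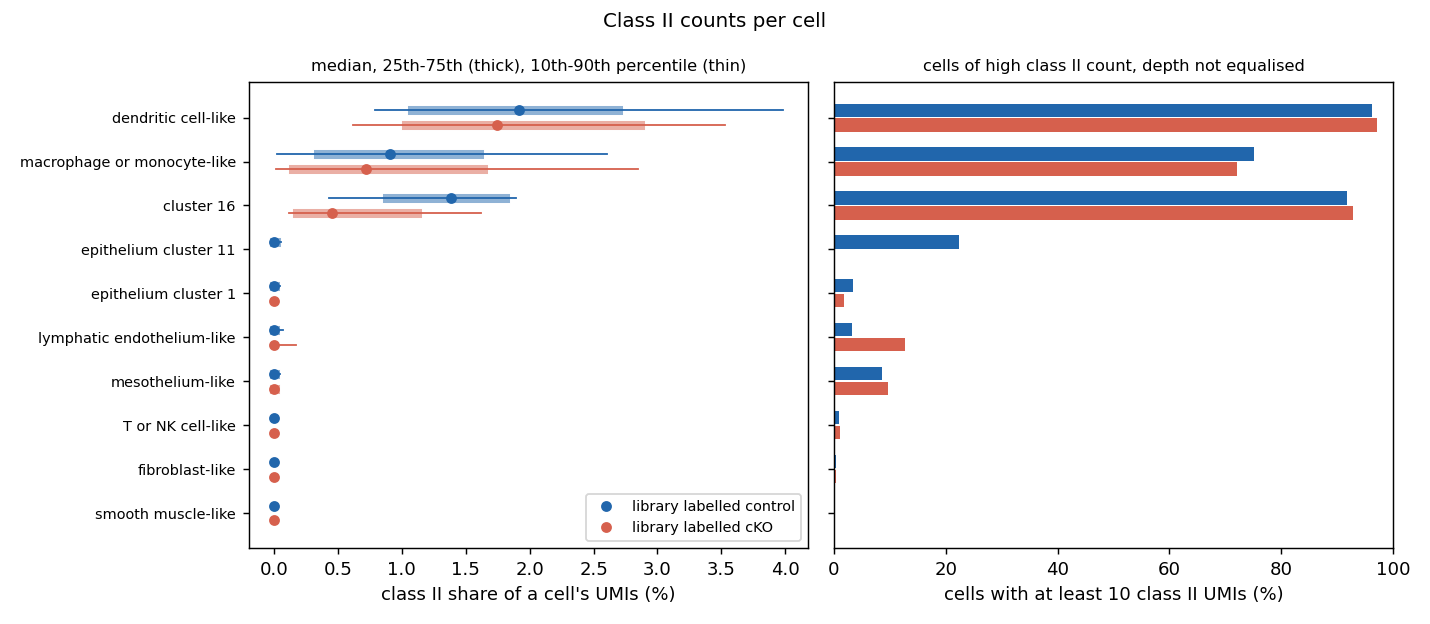
Left, share of each cell's UMIs on the 9 class II genes in percent (point: median; thick bar: 25th to 75th percentile; thin bar: 10th to 90th percentile); right, percent of cells with at least 10 class II UMIs, with depth not equalised. Dendritic cell-like cells have medians of 1.92% and 1.75%, whereas outside the dendritic and macrophage classes and cluster 16 the medians lie at or near 0; cluster 11 of epithelium-like cells exists in the library labelled control alone.

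Ciita, the coactivator, was much lower in the macrophage than in the dendritic class, although the abundant chains and Cd74 were within 3-fold between them. Dendritic cell-like cells had 85 and 162 Ciita UMIs, or 48.8 (39.0 to 60.3) and 84.5 CPM (72.0 to 98.5), found in 21.7% and 29.2% of cells. Macrophage or monocyte-like cells had 4 and 6 UMIs, or 1.49 (0.405 to 3.80) and 3.56 CPM (1.31 to 7.74). Ciita was 0.237% (0.189 to 0.293) and 0.447% (0.381 to 0.521) of class II UMIs in dendritic cell-like cells and 0.0121% (0.00330 to 0.0310) and 0.0322% (0.0118 to 0.0702) in macrophage or monocyte-like cells. Cluster 16 had 7 and 0 Ciita UMIs, the latter allowing up to 9.06 CPM (3 UMIs of the class total), and T or NK cell-like cells had 0 in both libraries. The RFX and NF-Y subunits and Creb1, which bind the promoters that Ciita works on, were closer between the 2 classes for the 3 given here: Rfx5 was at 20.1 and 23.5 CPM in dendritic and at 8.54 and 8.30 CPM in macrophage or monocyte-like cells, Rfxap was at 14.4 and 16.7 against 23.8 and 21.9 CPM, and Nfya was at 102 and 119 against 86.1 and 90.1 CPM.

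The peptide-loading genes fell into 2 patterns. H2-DMa and H2-DMb1 were at their highest level, among the classes of at least 100 cells in both libraries, in macrophage or monocyte-like cells. H2-DMa had 152 and 71 UMIs there (56.4 and 42.1 CPM) against 45 and 41 (25.8 and 21.4 CPM) in dendritic cell-like cells, with intervals that do not overlap in either library (47.8 to 66.2 against 18.8 to 34.6, and 32.9 to 53.1 against 15.3 to 29.0). H2-DMb1 had 30.4 and 32.0 CPM in macrophage or monocyte-like cells and 16.1 and 17.2 CPM in dendritic cell-like cells, and here the intervals overlap in the library labelled cKO (24.0 to 41.8 and 11.8 to 24.2). H2-DMb2 went the other way, with 25 and 28 UMIs (14.4 and 14.6 CPM) in dendritic cell-like cells and 3 and 1 UMIs in macrophage or monocyte-like cells. H2-DMb1 and H2-DMb2 are near-identical copies, and how reads shared by both were counted is not given in the sources used here, so the split between them is uncertain. H2-Oa, the subunit of the H2-DM inhibitor, had 19 and 20 UMIs in dendritic cell-like cells (10.9 and 10.4 CPM), 1 and 3 in cluster 16 and 0 in macrophage or monocyte-like cells of either library, which allows up to 1.11 and 1.78 CPM there. The partner chain of H2-O followed it: H2-Ob had 27.0 and 28.7 CPM in dendritic cell-like cells and 59.8 and 48.3 CPM in cluster 16, against 3.71 and 1.19 CPM in macrophage or monocyte-like cells. H2-Eb2, a second I-E beta gene, had 66 and 101 UMIs in dendritic cell-like cells and 0 in macrophage or monocyte-like cells of either library.

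Between the libraries, no class II gene of the dendritic or macrophage class was past 2-fold. In dendritic cell-like cells all 9 members reached 10 CPM, and none was past 2-fold in either direction, beside 4.04% of 7548 genes at a log2 ratio (cKO over control, after adding 5 CPM) of -1 or less and 3.79% at 1 or more. Their median log2 ratio was -0.05, with 6 members lower and 3 higher, against a median of 0.22 over all genes of these cells. The lowest was H2-Eb1, at -0.44 (interval of the ratio without the added CPM -0.51 to -0.38), and the highest was Ciita, at 0.73 (0.40 to 1.19). The Ciita level was thus higher in the library labelled cKO while Cd74, at -0.10, and H2-Aa, at -0.05, were close to level. Cluster 3, 1 of the 2 dendritic cell-like clusters, had 38 cells in the library labelled control and 1 in that labelled cKO; without it the Ciita ratio was 0.57 and that of H2-Eb1 was -0.45. Lyz2, the lysozyme of macrophages and some dendritic cells, had 147 and 576 UMIs in this class (84.4 and 300.4 CPM, 1.77), and was the only gene past 2-fold there of the antigen-presenting cell marker list (10 of 12 at 10 CPM or more). At a finer clustering (resolution 2), where 101 and 135 cells were named dendritic, the ratios were 0.17 for H2-Aa, -0.18 for H2-Eb1 and 0.78 for Ciita. The part of the cells with Lyz2 in these ratios was not tested.

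In macrophage or monocyte-like cells 6 members reached 10 CPM and none was past 2-fold, beside 2.46% of 7516 genes lower and 1.34% higher. The median was -0.19 against 0.08 over all genes, and 5 of the 6 were lower in the library labelled cKO. H2-Eb1, at -0.39 (-0.47 to -0.31), and H2-DMa, at -0.38 (-0.85 to -0.01), had the lowest ratios, and Cd74 was at -0.07 (-0.11 to -0.03). H2-Eb1 therefore had a lower ratio than the other 2 chains in both antigen-presenting classes, H2-Aa being at -0.15 and H2-Ab1 at -0.23 in macrophage or monocyte-like cells.

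These class II values stood beside a large difference in interferon-stimulated genes in the same cells. The list of 19 such genes had a median log2 ratio of -3.21 in dendritic cell-like cells, with 19 of 19 at -1 or less, and of -1.72 in macrophage or monocyte-like cells, with 18 of 19. The antigen presentation genes of class I, which load peptides from the cytosol, lay between: their median was -0.79 in dendritic and -0.57 in macrophage or monocyte-like cells. In dendritic cell-like cells 1 of 9 of them was at -1 or less, Psmb9 (an immunoproteasome subunit, -1.41), and in macrophage or monocyte-like cells 3 of 9 were, Tap1 (peptide transporter, -1.70), Psmb8 (-1.14) and Nlrc5 (the class I counterpart of Ciita, -1.05). The class I chains of that list were not past 2-fold in either class. H2-K1 was at 1644 and 1707 CPM in dendritic and at 2178 and 2346 CPM in macrophage or monocyte-like cells. H2-D1 was at 1238 and 1097 against 1617 and 1537 CPM, and B2m at 2948 and 2529 against 3990 and 4394 CPM. Socs1, a feedback inhibitor of cytokine signalling, was at -1.73 in macrophage or monocyte-like cells. The part of the library difference in interferon genes in the class II values was not tested.

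**Figure D3:**
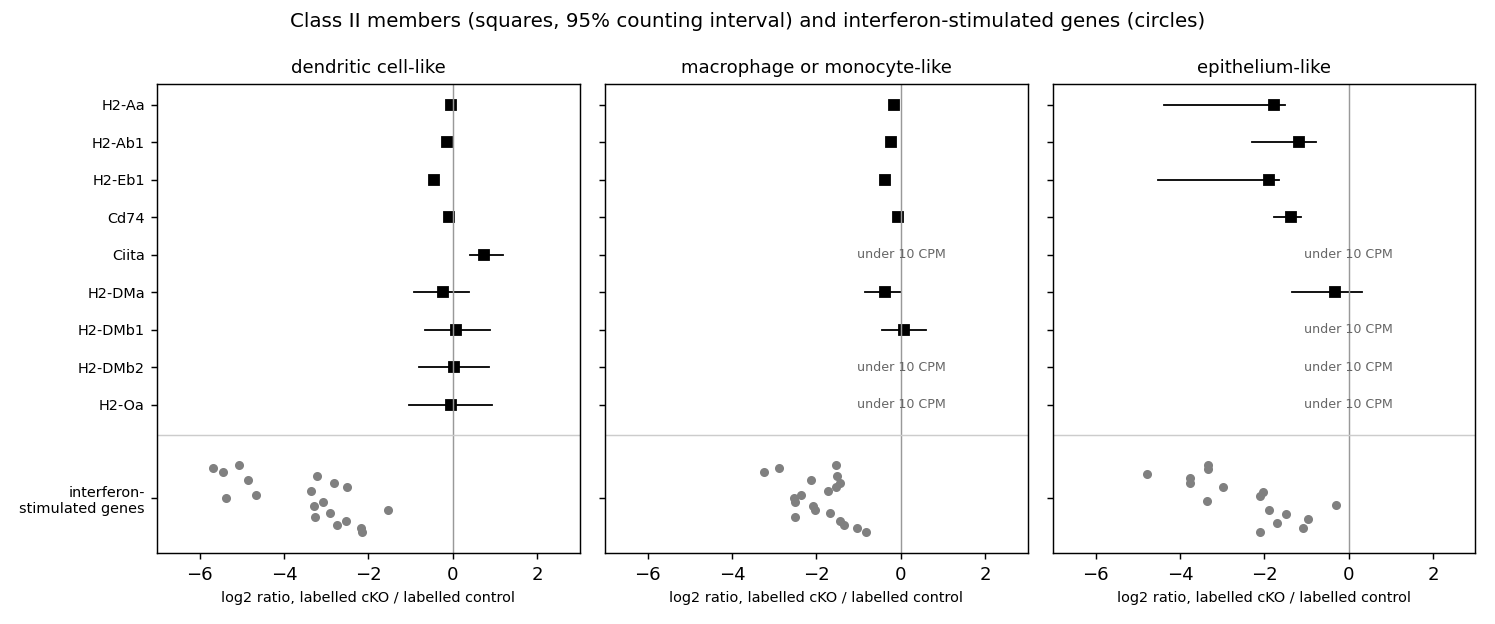
Log2 ratio of CPM, library labelled cKO over library labelled control after adding 5 CPM, for each class II member (squares, with the 95% counting interval of the ratio without the added CPM) and for interferon-stimulated genes (grey circles, whose vertical spread has no meaning) in 3 cell classes. Class II members of dendritic cell-like cells lie between -0.44 and 0.73 while all 19 interferon-stimulated genes lie below -1; in epithelium-like cells the class II chains lie below -1 as well.

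Within a cell class and library, the class II sums of the 3 subclusters of the finer clustering were within 2-fold of each other. A dendritic subcluster led by the interferon-stimulated genes Ifit1bl1, Ifit2 and Rsad2 had 50 and 2 cells and a class II sum of 21273 and 24262 CPM. A dendritic subcluster led by F3, Prxl2a and Sprr1a had 51 and 133 cells and 17466 and 18785 CPM. Another subcluster of the dendritic class (53 and 69 cells), led by Lyz2 and Ccl4 and not named dendritic at this resolution, had 23575 and 17950 CPM. A macrophage subcluster led by Cmpk2, Ifit2 and Cxcl10 had 87 and 17 cells and 14316 and 16267 CPM. The subcluster led by haemoglobin genes (161 and 136 cells) had 10567 and 9544 CPM, and that led by Slpi and Mmp12 (59 and 71 cells) had 15008 and 12995 CPM. The interferon-led macrophage subcluster also had the highest H2-Aa level of the 3 in both libraries (3596 and 4833 CPM). Ciita was highest in the F3-led dendritic subcluster, which had keratins 8 and 18 among its leading genes, at 68.8 and 106 CPM.

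The remaining genes of the pathway differed little in these cells. In dendritic cell-like cells no gene of the RFX, NF-Y and Creb1 list (6 of 7 at 10 CPM or more, median 0.36) or of the endosomal protease and reductase list (7 of 7, median -0.09) was past 2-fold. In macrophage or monocyte-like cells the medians of these lists were -0.08 (5 genes) and 0.17 (7 genes), again with none past 2-fold. Of the costimulatory and checkpoint genes, Icosl, the ligand of ICOS on T cells, was higher in dendritic cell-like cells of the library labelled cKO (31 and 110 UMIs, 1.45), and Cd80, a ligand of CD28, was higher in macrophage or monocyte-like cells (36 and 59 UMIs, 1.12). They were the only ones of that list past 2-fold in these 2 classes.

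Cluster 16 had too few cells to enter the comparison. Immunoglobulin genes and the plasma cell genes Jchain and Mzb1 were among its leading genes, beside the B cell gene Cd79a. Cd74 had 8113 CPM in the library labelled control and 3048 in that labelled cKO, and H2-Aa had 2153 and 414 CPM. Plasma cells are known to silence Ciita and class II, and the median class II share was 1.39% and 0.453% of a cell's UMIs with 10th to 90th percentiles of 0.426% to 1.89% and 0.117% to 1.62%. The part of plasma cells in the library difference was not tested.

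In epithelium-like cells class II was sparse, uneven and lower in the library labelled cKO. Cd74 had 3167 and 83 UMIs (168 and 61.6 CPM, log2 ratio -1.37, interval -1.78 to -1.13), H2-Ab1 had 627 and 16 UMIs (33.2 and 11.9 CPM, -1.18), H2-Aa had 471 and 5 UMIs (24.9 and 3.71 CPM, -1.78) and H2-Eb1 had 518 and 5 UMIs (27.4 and 3.71 CPM, -1.90). H2-DMa, at 14.3 and 10.4 CPM, was at -0.33 (-1.35 to 0.31). Of the 5 members at 10 CPM or more, 4 were at -1 or less, beside 7.24% of 8678 genes, and their median was -1.37 against 0.26 over all genes. H2-Aa and H2-Eb1 passed that level through the library labelled control alone, and without the filter the median over all 9 members was -0.33. Free RNA would give 17.1 and 33.5 CPM of the class II sum here, against 271 and 95.02 CPM counted. Interferon-stimulated genes (14 of 16 at -1 or less, median -2.10) and class I genes (5 of 9, median -1.13) were low beside them. So were Ifngr1, a chain of the interferon gamma receptor (-1.94), the class II-processing protease Ctss (-1.79), the proteases Ctsl (-1.66) and Ctsh (-1.01), and the checkpoint ligand Cd274 (-1.61), while the protease Ctsd was higher (1.06). Ctss, Cd274 and the class I genes Tap2, Nlrc5 and Psmb9 passed 10 CPM through the library labelled control alone. Several interferon-stimulated genes did so too, such as Ifit2 (858 and 0 UMIs), so the filter favours low ratios in these lists. The class I chains H2-K1 (848 and 863 CPM), H2-D1 (684 and 441) and B2m (810 and 560) were not past 2-fold.

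The comparison rests on few cells and on different clusters. Clusters 5 and 11 (268 and 224 cells) came from the library labelled control alone, and cluster 0 had 516 and 41 cells. Cluster 1, with 260 and 54 cells, had a class II sum of 320 and 315 CPM and Cd74 at 161 (147 to 175) and 210 CPM (160 to 270), so the sum was level there; but 1 of the 54 cells of the library labelled cKO held 83 of its 90 class II UMIs, and in the library labelled control 3 cells held 72.7% of 1003. When the 3 cells with the most class II UMIs of each library were left out of all epithelium-like cells, an alternative chosen after seeing the data, the Cd74 ratio was -2.97. With every cell thinned to 1000 UMIs, it was 0.34. The share of thinned cells with a Cd74 UMI was nevertheless lower in the library labelled cKO (6.48% and 2.75% of cells), and the cause of the change of sign was not tested. The median depth of cluster 11 was 36820 UMIs against 3128 in cluster 0.

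Cells of high class II count in the epithelium were mostly without the markers of antigen-presenting cells. In the library labelled control 67 of 1312 epithelium-like cells had at least 10 class II UMIs, 50 of them in cluster 11, and they held 82.7% of the class's class II UMIs. Of these 67 cells, 49 had no UMI of any of 12 markers of leukocytes and antigen-presenting cells (Ptprc, Lyz2, Tyrobp, Fcer1g, Csf1r, C1qa, C1qb, Adgre1, Itgax, Flt3, Cd79a and Ms4a1), 11 had 3 or more of them, and Cd79a and Ms4a1 were at 0. The summed marker level ranged from 0 to 2111 CPM over these cells with a median of 0. High-count cells of the same library had medians of 6068 CPM in the macrophage or monocyte class and 967 CPM in the dendritic class. Of the 155 such dendritic cell-like cells, 5 had no marker. Their summed markers were at 1100 CPM, however, against a class II sum of 20612 CPM in the dendritic class. A few class II UMIs from such a cell could thus come without a marker UMI. The lack of markers therefore cannot tell where the class II UMIs of epithelium-like cells came from, and their source was not tested. With cells summed, the markers were at 38.8 CPM in the 67 epithelium-like cells and 5.72 CPM in the other 1245, of which 2 had 3 or more markers. High-count cells of cluster 11 were deeper than the rest of the cluster (medians of 56035 and 32142 UMIs). At an equal 1000 UMIs a class II UMI was present in 12.5% of cells of cluster 11 and in 10.7% of cluster 0 and 10.4% of cluster 1 in the library labelled control (62.1%, 28.9% and 33.5% before thinning), against 5.15% of cluster 12 of the T or NK cell-like cells.

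**Figure D4:**
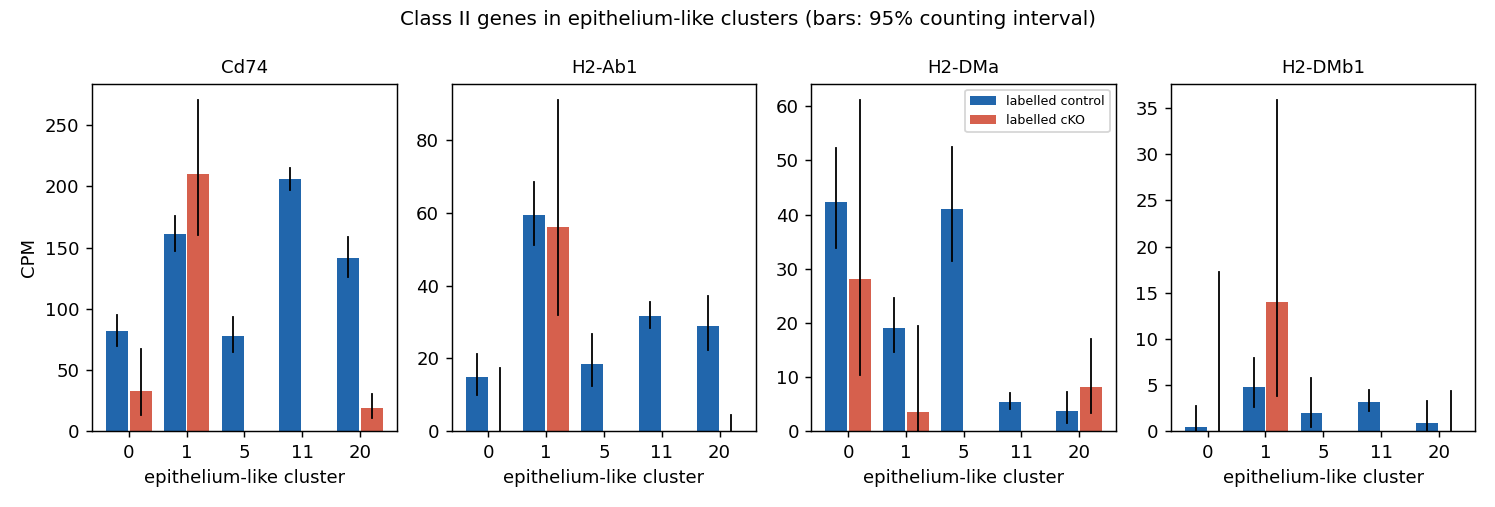
CPM of 4 class II genes in the 5 epithelium-like clusters, in the library labelled control (blue) and the library labelled cKO (red), with 95% counting intervals; clusters 5 and 11 have no cell in the library labelled cKO, and each panel has its own scale. H2-DMa stands at 42.3 and 41.0 CPM in clusters 0 and 5 of the library labelled control, where H2-DMb1 stays at 0.498 and 1.98 CPM.

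H2-DMa stood apart from H2-DMb1 in some of the epithelium-like clusters. In cluster 0 of the library labelled control it had 85 UMIs while its partner H2-DMb1 had 1, and in cluster 5 it had 62 and H2-DMb1 had 3. H2-DMa was thus 98.8% (93.7 to 100.0) and 95.4% (87.1 to 99.0) of the pair's UMIs in these clusters, against 65.0% (58.5 to 71.1) in macrophage or monocyte-like cells and 61.6% (49.5 to 72.8) in dendritic cell-like cells of that library. The intervals of clusters 0 and 5 lie above those of both antigen-presenting classes. Cluster 1 of that library had 60 and 15 UMIs (80.0%, 69.2 to 88.4), which overlaps both, and cluster 20 had 8 and 2. Outside the epithelium, H2-DMa also outnumbered H2-DMb1 in unnamed cluster 14, with 9 and 0 UMIs in the library labelled control and 8 and 1 in that labelled cKO. In cluster 11, where Cd74 was at 206 CPM, H2-DMa was at 5.46 CPM and its share was 63.2% (52.2 to 73.3). The library labelled cKO had 6 H2-DMa and 0 H2-DMb1 UMIs in cluster 0, 1 and 4 in cluster 1, and 7 and 0 in cluster 20. In empty droplets of the library labelled control the pair had 20 and 6 UMIs, and H2-DMa was at 11.6 CPM, below its level in clusters 0 and 5. Brd2, the overlapping gene, was at 896 CPM in cluster 0, 472 in cluster 5 and 291 in cluster 11 of the library labelled control. The H2-DMa levels there were 42.3, 41.0 and 5.46 CPM. Cluster 1 had 276 CPM of Brd2 beside 19.1 of H2-DMa, and cluster 20 had 478 beside 3.68. Macrophage or monocyte-like cells of that library had 551 CPM of Brd2 beside 56.4 of H2-DMa, and dendritic cell-like cells had 362 beside 25.8. T or NK cell-like cells had 502 beside 3.76, and fibroblast-like cells had 421 beside 1.66. Brd2 levels near that of cluster 5 thus stood beside both high and low H2-DMa levels. Whether strand was used in the counting is not given in the sources used here. The part of Brd2 reads in the H2-DMa count was not tested.

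Elsewhere class II UMIs came from a handful of cells, and the median cell had none. In fibroblast-like cells Cd74 had 216 and 662 UMIs (22.4 and 41.0 CPM, log2 ratio 0.74) and H2-Ab1 had 66 and 242 (6.86 and 14.98 CPM, 0.75). Of the 3 members at 10 CPM or more, none was past 2-fold, beside 0.897% of 8142 genes lower and 1.71% higher. Their median was 0.74 against 0.10 over all genes, and 0.04 over all 9 members. H2-Ab1 passed that level through the library labelled cKO alone, and H2-Aa, which passed it in both, was at -0.05 (10.6 and 10.1 CPM). The 3 cells with the most class II UMIs held 67.1% of the 477 UMIs in the library labelled control and 70.3% of the 1260 in that labelled cKO. All 4 high-count cells of the first and 3 of the 6 of the second had UMIs of 3 or more of the 12 markers, with the summed markers at 605 and 443 CPM in high-count cells against 32.0 and 18.6 CPM in the rest. Over these high-count cells the marker sum ranged from 314 to 1285 CPM in the library labelled control, with Itgax and Flt3 at 0, and from 0 to 1267 CPM in that labelled cKO, with Itgax, Cd79a and Ms4a1 at 0. Doublets were not removed, and their part in these counts was not tested. Without the 97 and 103 cells of highest doublet score in the 2 libraries, the fibroblast median was -0.04.

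Smooth muscle-like cells, the class the series title points to, were almost free of class II. All 9 genes together had 9 UMIs among 313 cells of the library labelled control and 136 among 681 cells of that labelled cKO, and 2 of these 681 cells held 77.9% of the 136. Neither of these cells had 3 of the 12 markers, and 10 of the 12 markers were at 0 in them. Each had at least 1 marker, however, at a median depth of 1711 UMIs. Their summed markers were at 877 CPM, against 8.60 CPM in the other 679 cells of that library. Free RNA would give 15.1 and 31.8 CPM of the class II sum here, against 9.54 and 64.9 CPM counted.

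Lymphatic endothelium-like cells had the highest class II level among the non-leukocyte classes. At resolution 2, 22 and 75 cells were named lymphatic endothelium and 9 and 27 blood endothelium, a name no cluster had at the main setting. The lymphatic class may therefore hold both. Cd74 was at 452 CPM in 31 cells of the library labelled control and at 966 CPM in 102 cells of that labelled cKO, but 1 cell of the former held 346 of 359 class II UMIs, and 13 cells of the latter held 99.0% of 2494. Of those 13 cells, 7 had 3 or more of the 12 markers, 1 had none, and C1qb and Adgre1 were at 0. In T or NK cell-like cells 2 of 211 and 5 of 458 cells held 87.3% and 90.5% of class II UMIs. An unnamed cluster (14) of 135 and 292 cells, led by Il2rb, Irf8, Ptprc and Gzma, had a class II sum of 81.3 and 339 CPM, with 4 cells holding 92.1% of the latter. Mesothelium-like cells (82 and 31) had 205 and 729 CPM, and 3 cells held 96.6% of the 408 class II UMIs in the library labelled cKO. Free RNA was estimated to give 234 and 643 CPM there. That estimate used epithelial markers and took 52.3% and 100% of these cells' UMIs as free RNA, so it cannot give a background for this class.

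Across 24 class and library combinations of at least 20 cells, the genes whose log2(CPM + 5) was most like the mean of the members, of 13416 genes ranked, were Cd86 (Pearson's r = 0.93), Cd40 and Cd83 (0.92 each), Ctss (0.91) and the gene model Gm6377 (0.90). Cd86 and Cd40 are costimulatory molecules, CD83 steadies class II at the cell surface, and Ctss cuts Cd74. Among the members, H2-Ab1, H2-Aa, Cd74 and H2-Eb1 correlated with the mean of the others at 0.98 to 0.96, H2-DMb1, H2-DMa, H2-DMb2 and Ciita at 0.80 to 0.76, and H2-Oa at 0.49. The points share 2 libraries and differ in depth, and low genes such as H2-Oa are limited by counts, so these values describe the data only.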

How the data were processed

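The authors deposited unfiltered UMI counts per gene and barcode, with no normalization, and the file headers name Cell Ranger 4 while the submitters' processing notes name Cell Ranger 6.1.1 and mm10. Barcodes with 1000 UMIs or more, 500 genes or more and no more than 20% mitochondrial UMIs were taken as cells. They were clustered with scanpy 1.11.5 (2000 variable genes without class II genes, 30 components, 15 neighbours, Leiden resolution 1.0; no batch correction, as library and group coincide). Clusters were named where 3 or more markers of a type were found in 25% or more of the cells, at 2 times the median cluster or more; a limit on deep clusters with markers of another class was set after seeing the data, and names rebuilt this way may differ from the study's. Scrublet marked 4 of 7076 cells (0.0565%), so it did not work and doublets remain.

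UMIs were summed per class and library and given as CPM. Comparison was limited to classes with 100 or more cells in each library, as log2 ratios after adding 5 CPM, for genes of at least 10 CPM in 1 library. A count of 0 was bounded by 3 UMIs. Free RNA was estimated from markers of other classes and droplets of 10 to 100 UMIs. The ratio and its interval were tested on simulated counts. All 9 members are named, with Prickle1, listed pathway genes past 2-fold and the 5 genes most alike; Rfx5, Rfxap, Nfya, H2-Ob, H2-Eb2, Brd2 and the leading genes of subclusters were added after their values were seen, and 1 listed pathway gene is not reported here. Members and lists were chosen with earlier results of these data known. Gene positions are from GENCODE vM21 (GRCm38) and promoters from RefSeq. Alternatives changed the added CPM, filter, scaling, clustering, depth, free RNA and doublets.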

Additional observations from a re-analysis of the deposited data

How the results depend on the processing

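With 1 library per group no replicate could be left out, and no paired analysis was possible because each group has 1 library. Alternatives moved 24 of 60 medians over the class II genes of the 4 main classes by more than counting error. In dendritic cell-like cells the median of -0.05 was -0.30 with median-of-ratios scaling, 0.17 at resolution 2, -0.16 with at least 2000 UMIs per cell, -0.13 after subtracting free RNA, 0.12 with cells thinned to 1000 UMIs and 0.070 without the highest doublet scores, so its sign is not settled while its size stayed under 2-fold. In macrophage or monocyte-like cells (-0.19) these were -0.28 (scaling), -0.21 (free RNA), -0.047 (thinned), -0.26 (doublet scores) and -0.23 without the 3 cells of most class II UMIs. In epithelium-like cells (-1.37) they were -0.33 with no filter, -0.18 thinned, where Cd74 reversed to 0.34, and -1.85 without those 3 cells. In fibroblast-like cells (0.74) they were 0.57 with 10 CPM added, 0.035 with no filter, 0.63 at resolution 0.5, 0.031 with at least 2000 UMIs, 0.60 after subtracting free RNA, -0.69 thinned, -0.041 without the highest doublet scores, -0.11 with class II genes kept among the variable genes, -0.11 with interferon genes left out of them and 0.64 without those 3 cells. Except where fewer genes or cells entered, the cause was not tested. Leaving out the 3 top cells, or cluster 3, was chosen after seeing the data. Of the other values, 383 were the same, 88 moved and 1 reversed. With under 50 UMIs of a gene per library in dendritic cell-like cells, the counting interval of its ratio spanned more than 2-fold, which limits H2-DMa, H2-DMb1, H2-DMb2 and H2-Oa.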
